A study of Homo sapiens with 6 samples.

Results

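Immune checkpoint ligands are proteins by which a cell restrains the immune cells that touch it or share its medium. The set described here held 10 genes, named by symbol with no threshold on a measured value, though with earlier results of these data known, among the 60748 rows of the deposited gene table, and each symbol matched 1 row. In order of role these were CD274 (PD-L1), PDCD1LG2 (PD-L2), CD276 (B7-H3) and VTCN1 (B7-H4) of the B7 family, NECTIN2 (CD112) and PVR (CD155) of the nectin family, CD47, the galectins LGALS1 and LGALS9, and the tryptophan-degrading enzyme IDO1. IDO1 is an intracellular enzyme and LGALS1 and LGALS9 are secreted lectins, so the set is one of immune inhibitors rather than of surface ligands alone.

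Transcripts were measured by RNA sequencing in 6 libraries of LX-2, a line of human hepatic stellate cells: 3 of LX-2Vector, with an empty vector, and 3 of LX-2FAP, in which fibroblast activation protein α (FAPα) was overexpressed. Per the labels, all cells were cultured for 24 h. Per the study's methods, lentivirus brought in either FAPα or the bare backbone, which carries a ubiquitin promoter, EGFP and puromycin resistance in both groups. No immune cells and no interferon treatment are named in the labels. The labels do not say whether the 3 libraries of a group came from separate cultures, so p-values measure the spread between these libraries, which may be technical.

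PD-L1 and PD-L2 bind PD-1 on T cells and dampen signals from the T cell receptor. The inhibitory receptor TIGIT and the activating receptor CD226 compete for PVR and NECTIN2, CD47 binds SIRPα on macrophages and holds back phagocytosis, galectin-9 binds TIM-3, galectin-1 binds glycans on activated T cells, and IDO1 turns tryptophan into kynurenine. Hepatic stellate cells, the vitamin A-storing pericytes of the liver sinusoid, are known to inhibit T cells once activated, in part through PD-L1. Interferon-γ is the best known inducer of PD-L1 and IDO1, and acts through the kinases JAK1 and JAK2 and the factor IRF1.

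Total counts ran from 17355700 to 26352060 per library. FAP itself had 42 to 55 counts in LX-2Vector and 14805 to 15160 in LX-2FAP, a log2 fold change (log2FC, LX-2FAP over LX-2Vector) of 8.33 (SE 0.13, adjusted p = 4.47e-16 by edgeR). Of the stellate markers, VIM, TIMP1 and COL1A1 had means of 300.8, 131.2 and 34.3 FPKM (fragments scaled to gene length and library depth) in LX-2Vector. ACTA2 had 1.29 FPKM and COL1A2 0.109, while DES was at 0.0114 and LRAT, the enzyme of vitamin A storage, had no count in any library. Of 14 leukocyte markers 6 passed the expression filter and none was called (0, and 1 at an unadjusted p under 0.05, by edgeR). The summed level of all 14 was 6.86 to 8.23 FPKM in LX-2Vector and 7.02 to 8.94 in LX-2FAP, and PTPRC, their defining gene, averaged 0.585 FPKM over the 6 libraries. Called genes numbered 4 of 11 tested stellate markers (VIM higher, COL1A1, COL3A1 and PDGFRB lower), 1 of 5 endothelial (VWF, lower), 0 of 1 hepatocyte and 0 of 4 epithelial markers (0 by edgeR, with 1 of each of these last lists at an unadjusted p under 0.05). Over all tested genes 5.29% were called. In the 6 fits that each left out 1 library, VIM kept its call in 1, PDGFRB and VWF in 2, COL1A1 in 3 and COL3A1 in 5. DESeq2 gave no call for COL1A1 or VWF. The part of these markers in the results below was not tested.

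Of the 10 genes, LGALS1 was by far the most abundant and VTCN1 was at the edge of detection. LGALS1 averaged 512.1 ± 23.4 FPKM in LX-2Vector (SD, n = 3), 30.7 times the next gene and above 99.9% of tested genes. NECTIN2 (16.7 ± 1.31 FPKM), CD47 (16.5 ± 2.12), CD276 (14.2 ± 1.08) and PVR (13.6 ± 0.544) followed, and each neighbouring pair among these 4 had overlapping ranges, so their order is not settled. CD274 had 6.77 ± 0.363 FPKM and PDCD1LG2 had 5.89 ± 0.358, and their ranges did not overlap. IDO1 (0.186 ± 0.0396 FPKM), LGALS9 (0.0900 ± 0.0168) and VTCN1 (0.0158 ± 0.00325) were at the bottom of the order. The place of PVR also depended on its length. The deposited FPKM values imply 6098 bases, whereas the merged exons of GENCODE release 29 hold 3519. The same counts divided by the shorter length would give 23.5 FPKM and a place next to LGALS1. Reads were not recounted on those exons, so the level of PVR on that release is not known.

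**Figure D1:**
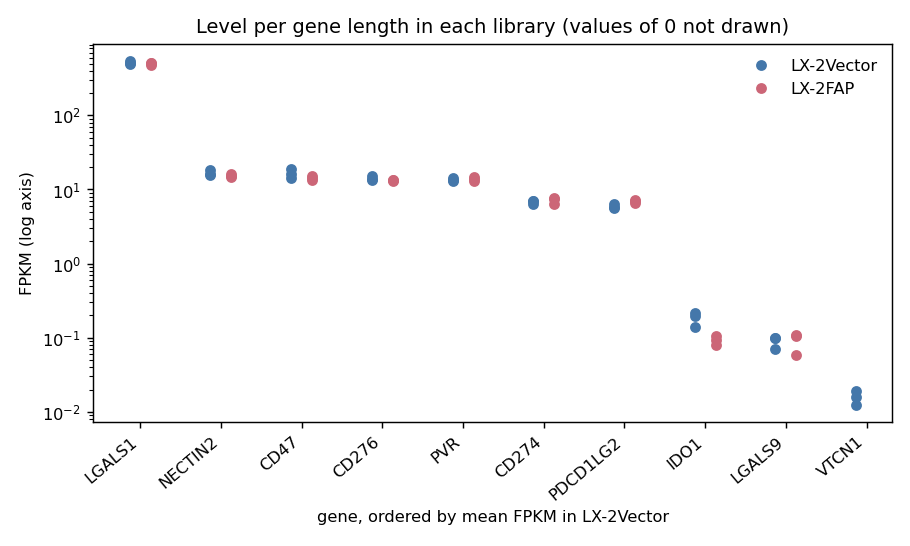
FPKM of the 10 genes in each library on a log axis, ordered by their mean in LX-2Vector (blue, LX-2Vector; red, LX-2FAP; 3 libraries each). LGALS1 stands alone at the top, 6 genes lie between 5 and 20 FPKM, and IDO1, LGALS9 and VTCN1 lie under 0.3 FPKM.

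The comparison of LX-2FAP with LX-2Vector asked whether these transcripts differ with FAPα. VTCN1 was removed by the filter on low counts, 9 genes were tested, and none of the 9 passed the test. At an adjusted p under 0.05 edgeR called 0 of the 9, against 5.29% of all 18275 tested genes (2.57% higher and 2.73% lower in LX-2FAP). In bulk RNA, fewer cells with a transcript and less of it per cell cannot be told apart. At an unadjusted p under 0.05 there were 3 of the 9 (PDCD1LG2, CD47 and IDO1), where 22.2% of all tested genes passed. IDO1 passed the filter through its level in LX-2Vector alone, so its place in the counts of members is tied to that filter. Limma-trend on FPKM called 0 of the 9, with 2 at an unadjusted p under 0.05 (PDCD1LG2 and IDO1). On log2(FPKM + 1) and on log2(FPKM + 0.1) it called only 2 of all 18275 tested genes, so its 0 says little about the members. The DESeq2 Wald test called 0 of the 7 to which it gave an adjusted p, again with 2 at an unadjusted p under 0.05 (PDCD1LG2 and CD47). Over all tested genes it called 1021. The values were higher in LX-2FAP for 4 genes and lower for 5, with a median log2FC of -0.02, against -0.01 over all tested genes; 1 of the 4, LGALS9, changed sign when libraries were scaled by library size alone.

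For the 7 members with a mean count of at least 200, the intervals limit the size of the difference between these libraries. They rest on the spread between libraries, which may be technical, so they do not cover variation between cultures or cell clones. For each of the 7 the 95% interval of the fold change lay within 1.5-fold either way, the highest bound being 1.36-fold (PDCD1LG2) and the lowest 0.801-fold (CD47). The other tested members, LGALS9 and IDO1, had intervals that reached beyond 1.5-fold. The plot of fold changes with their intervals shows both groups of genes.

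**Figure D2:**
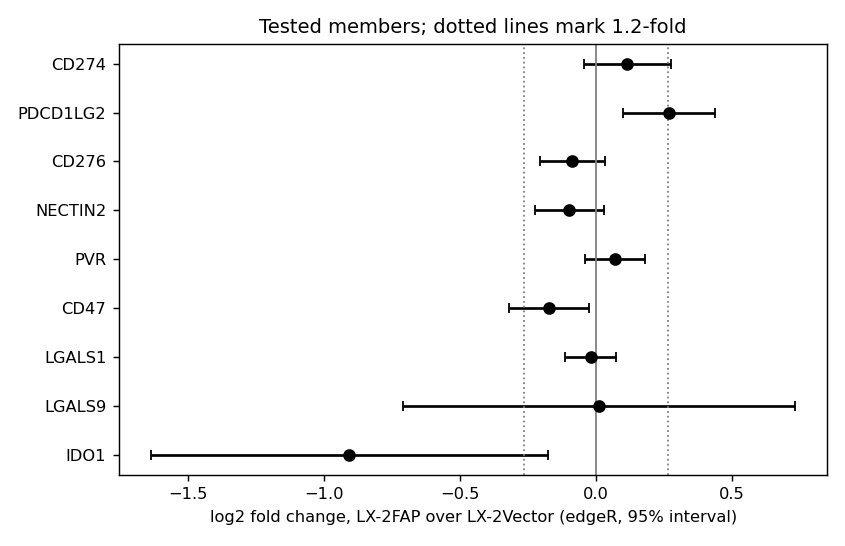
Log2FC of LX-2FAP over LX-2Vector for the 9 tested members (points) with 95% intervals from the edgeR quasi-likelihood fit (bars); dotted lines mark 1.2-fold. The intervals of PDCD1LG2, CD47 and IDO1 leave out 0, and none of the 9 genes had an adjusted p under 0.05. IDO1 passed the filter on low counts through LX-2Vector alone.

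CD274 and PDCD1LG2, the ligands of PD-1, are neighbours on chromosome 9 with 40003 bases between them. CD274 (ENSG00000120217, GRCh38 chromosome 9, 5450503 to 5470566) is induced by interferon in many cell types. Its upstream region is shown because it carries the letters of interferon response elements. In the RefSeq table (GRCh38.p14), 7 of the 10 genes had a promoter, in 8 windows of 250 bases before a transcript start; PDCD1LG2, LGALS1 and IDO1 did not. The stretch below is on the + strand at chr9:5450292-5450441 and runs from 250 to 101 bases before the start. Capitals mark a pair of overlapping interferon-stimulated response element cores (GAAA, a pair of free bases and GAAA, here read on the other strand, starting 208 and 202 bases before the start) and a gamma-activated site (TTCNNNGAA, 125 bases before).
CD274 upstream: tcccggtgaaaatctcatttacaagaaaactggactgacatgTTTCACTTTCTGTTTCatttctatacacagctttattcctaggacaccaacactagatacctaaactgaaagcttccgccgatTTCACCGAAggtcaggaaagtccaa
Both strands were searched, for motifs chosen after the expression values were seen. Of 35116 promoter windows, 3.02% held the first motif and 6.57% the second, and CD274 was the only one of the 7 genes with either. A hypoxia response core (ACGTG, 18.5% of windows) was found for CD47 and in 1 of the windows of CD276, and the EGR1 motif GCGTGGGCG (0.72% of windows) in none. A match is a stretch of letters and not a bound site.

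CD274 had 28.4, 28.5 and 25.9 CPM (counts scaled to the TMM-normalized library size) in LX-2Vector replicates 1 to 3 and 26.7, 32.0 and 31.3 CPM in LX-2FAP replicates 1 to 3. LX-2FAP replicates 2 and 3 lay above every LX-2Vector library and replicate 1 lay among them. The log2FC was 0.12 (SE 0.07, 95% interval -0.04 to 0.27, adjusted p = 0.392 by edgeR). Without LX-2FAP replicate 1 it was 0.20 and still not called (adjusted p = 0.0873 by edgeR).

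PDCD1LG2 (ENSG00000197646, chromosome 9, 5510570 to 5571254) was the member nearest to a call. It had 13.5, 15.1 and 14.1 CPM in LX-2Vector and 17.4, 17.9 and 15.9 CPM in LX-2FAP. Every LX-2FAP library was above every LX-2Vector library. Groups that did not overlap were seen for 2 of the 9 tested members, PDCD1LG2 (higher) and IDO1 (lower), against 26.4% of all tested genes. The filter kept IDO1 through LX-2Vector alone, so its separation carries no weight here. The means were 14.2 ± 0.807 and 17.1 ± 1.02 CPM (SD, n = 3). That is 20.5% higher, or 0.27 as a log2FC (SE 0.08, 95% interval 0.10 to 0.44, adjusted p = 0.0609 by edgeR). Over 14 alternatives the adjusted p ran from 0.0552 to 0.213, and the log2FC from 0.20 to 0.32, so the direction was kept and the call was never made.

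The ratio of PDCD1LG2 to CD274 counts within a library does not depend on scaling. It was 0.476, 0.529 and 0.544 in LX-2Vector and 0.651, 0.560 and 0.510 in LX-2FAP, so the groups overlapped. Per gene length PDCD1LG2 exceeded CD274 in LX-2FAP replicate 1 alone, with an FPKM ratio of 1.10. This ratio and that of the nectins below were chosen after the values were seen and were not tested.

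CD276 and VTCN1 are B7 family members without a settled receptor on T cells. CD276 (ENSG00000103855, chromosome 15, 73683966 to 73714518) had 84.4, 72.3 and 75.9 CPM in LX-2Vector and 73.2, 75.2 and 71.3 CPM in LX-2FAP. LX-2Vector replicate 1 was high and the other 5 libraries lay within 71.3 to 75.9 CPM. The log2FC was -0.09 (SE 0.06, 95% interval -0.21 to 0.03, adjusted p = 0.394 by edgeR), and -0.02 without LX-2Vector replicate 1. VTCN1 (ENSG00000134258, chromosome 1, 117143587 to 117210960) had 1 count in each LX-2Vector library and 0 in each LX-2FAP library, where a count of 0 allows up to 3 counts, or 0.125 to 0.167 CPM. Both groups were thus under that floor, so no fold change is given.

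**Figure D3:**
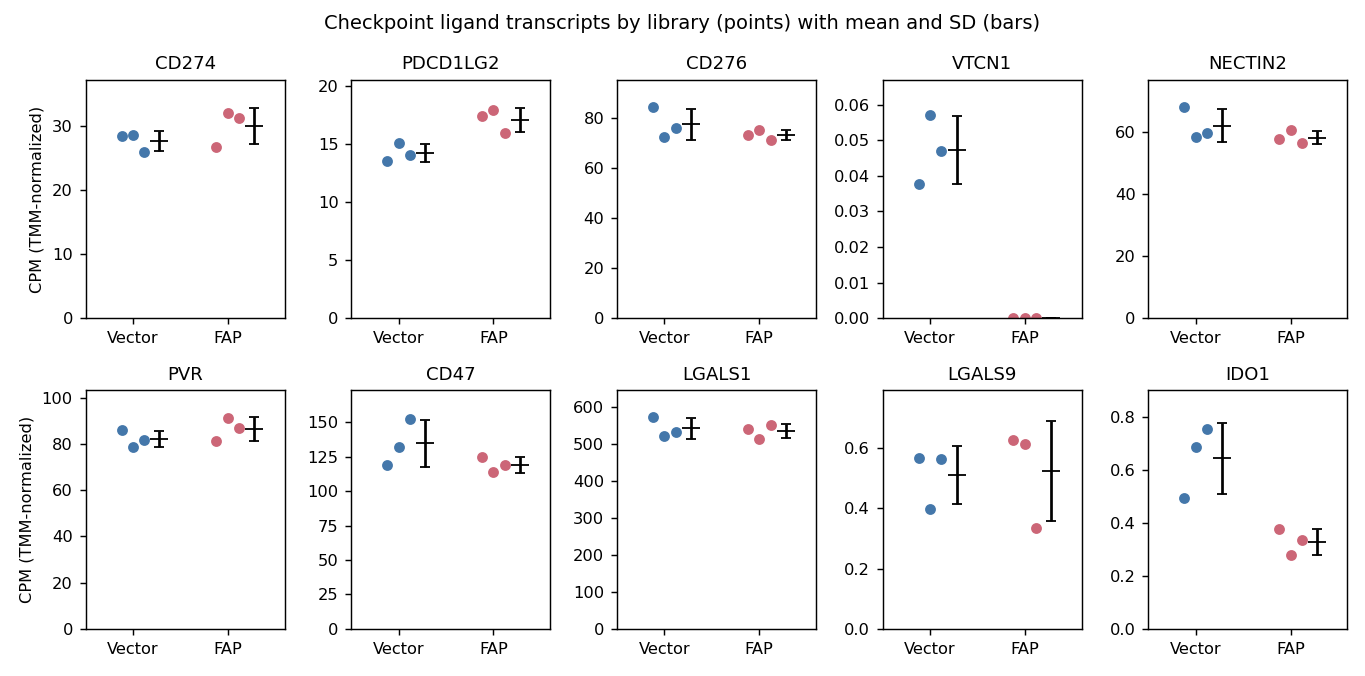
TMM-normalized CPM of each gene in LX-2Vector (blue) and LX-2FAP (red), with 1 point per library in replicate order and the mean ± SD as a black bar (n = 3); every axis starts at 0. The groups separate for PDCD1LG2, IDO1 and the nearly undetected VTCN1, and overlap for the other 7 genes.

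NECTIN2 and PVR, the ligands shared by TIGIT and CD226, lie on chromosome 19 with 182.6 kb between them. PVR (ENSG00000073008, chromosome 19, 44643798 to 44663583) had 85.9, 78.6 and 81.8 CPM in LX-2Vector and 81.2, 91.2 and 86.7 CPM in LX-2FAP. NECTIN2 (ENSG00000130202, chromosome 19, 44846175 to 44889228) had 67.9, 58.5 and 59.6 CPM in LX-2Vector and 57.7, 60.4 and 56.3 CPM in LX-2FAP. The groups overlapped for both genes. The PVR log2FC was 0.07 (SE 0.05, 95% interval -0.04 to 0.18, adjusted p = 0.48 by edgeR), and 0.03 without LX-2FAP replicate 2. The NECTIN2 log2FC was -0.10 (SE 0.06, 95% interval -0.22 to 0.03, adjusted p = 0.36 by edgeR), and -0.02 without LX-2Vector replicate 1.

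The ratio of PVR to NECTIN2 counts within a library is given as a description, since the pair was picked after its values were seen and neither gene was called. It was 1.26, 1.35 and 1.37 in LX-2Vector and 1.41, 1.51 and 1.54 in LX-2FAP, so the groups did not overlap, as was the case for 26.4% of all tested genes taken singly; the share among ratios was not computed. The mean ratios were 1.33 ± 0.0556 and 1.49 ± 0.0693 (SD, n = 3), a difference of 0.16 on the log2 scale. In GENCODE 29, PVR shares 3.44% of its exon bases with CEACAM19 on the same strand, and NECTIN2 3.42% with an antisense gene. The deposited values imply a longer PVR (6098 bases against 3519), so its overlap as counted is not known. The use of strand in counting was not stated.

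CD47 (ENSG00000196776, chromosome 3, 108043094 to 108091862), the signal that holds back phagocytosis, was the second member by CPM. It had 119, 132 and 153 CPM in LX-2Vector and 125, 114 and 119 CPM in LX-2FAP. LX-2Vector replicates 2 and 3 lay above every LX-2FAP library and LX-2Vector replicate 1 lay among them. The log2FC was -0.17 (SE 0.07, 95% interval -0.32 to -0.03, adjusted p = 0.152 by edgeR). CD47 was the only member called in any alternative, lower in LX-2FAP both without LX-2Vector replicate 1 (-0.26, adjusted p = 0.0453 by edgeR) and without a filter on low counts (-0.17, adjusted p = 0.0115 by edgeR), out of a range of adjusted p from 0.0115 to 0.60 over its 14 alternatives. In the fit without a filter the log2FC of CD47 was as in the fit reported. Its unadjusted p nevertheless fell from 0.0242 to 2.72e-04 by edgeR, and the cause was not tested. Over all tested genes that fit called 1606 of 41175, and the fit without LX-2Vector replicate 1 called 391 of 18730. Without LX-2Vector replicate 3, the highest library, the log2FC of CD47 was -0.06 (adjusted p = 0.60 by edgeR).

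LGALS1 (ENSG00000100097, chromosome 22, 37675608 to 37679806) encodes galectin-1, and was the most precisely measured member, with 9151 to 15143 counts per library. It had 573, 521 and 532 CPM in LX-2Vector and 541, 513 and 552 CPM in LX-2FAP, and the groups overlapped. The log2FC was -0.02 (SE 0.04, 95% interval -0.11 to 0.07, adjusted p = 0.846 by edgeR). That interval, which covers the spread between these libraries only, reached 1.08-fold lower and 1.05-fold higher. The sign of the log2FC was not stable, being 0.02 when LX-2Vector replicate 1 was dropped and 0.01 when LX-2FAP replicate 2 was.

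LGALS9 (ENSG00000168961, chromosome 17, 27629798 to 27649560), the gene of galectin-9, had 15, 7 and 12 counts in LX-2Vector and 15, 11 and 7 in LX-2FAP. The sums were 34 and 33 counts, and no difference was detectable at this depth (log2FC 0.01, SE 0.34, 95% interval -0.71 to 0.73, adjusted p = 0.992 by edgeR). Of the 75-base words of LGALS9, 8% occur in other genes, LGALS9B and LGALS9C among them, so its count is uncertain. LGALS9C averaged 1 count per library and LGALS9B 0.667.

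IDO1 (ENSG00000131203, chromosome 8, 39902275 to 39928444) had 13, 12 and 16 counts in LX-2Vector and 9, 5 and 7 in LX-2FAP, sums of 41 and 21. Each LX-2FAP library was below each LX-2Vector library, at 0.643 ± 0.135 CPM against 0.329 ± 0.0489 (LX-2Vector first; SD, n = 3). The log2FC was -0.91 (SE 0.34, 95% interval -1.63 to -0.18, adjusted p = 0.13 by edgeR, and 0.122 to 0.35 over its alternatives). IDO1 passed the filter through the LX-2Vector libraries alone, since 3 of 3 of these and 0 of 3 LX-2FAP libraries reached its 0.473 CPM, so its presence among the tested genes is tied to being high in that group. DESeq2 gave no adjusted p for it (unadjusted p = 0.098), and on the log2(FPKM + 1) scale of limma-trend the difference was -0.12. In GENCODE 29, IDO1 shares 3.68% of its exon bases with an antisense gene.

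At the study's cutoff, a fold change over 1.2 with an unadjusted p under 0.05, there were 2 members (PDCD1LG2 higher and IDO1 lower) against 7.89% of all tested genes. Of these, IDO1 was tested only because of its level in LX-2Vector. PDCD1LG2 sat at the edge of that cutoff: it met it without LX-2Vector replicate 2 or 3 or LX-2FAP replicate 3, and not without LX-2Vector replicate 1 or LX-2FAP replicate 1 or 2. IDO1 did not meet it without LX-2Vector replicate 3 or LX-2FAP replicate 2, and without the latter no member did. The plot of fold changes in every fit shows how far each value moved.

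**Figure D4:**
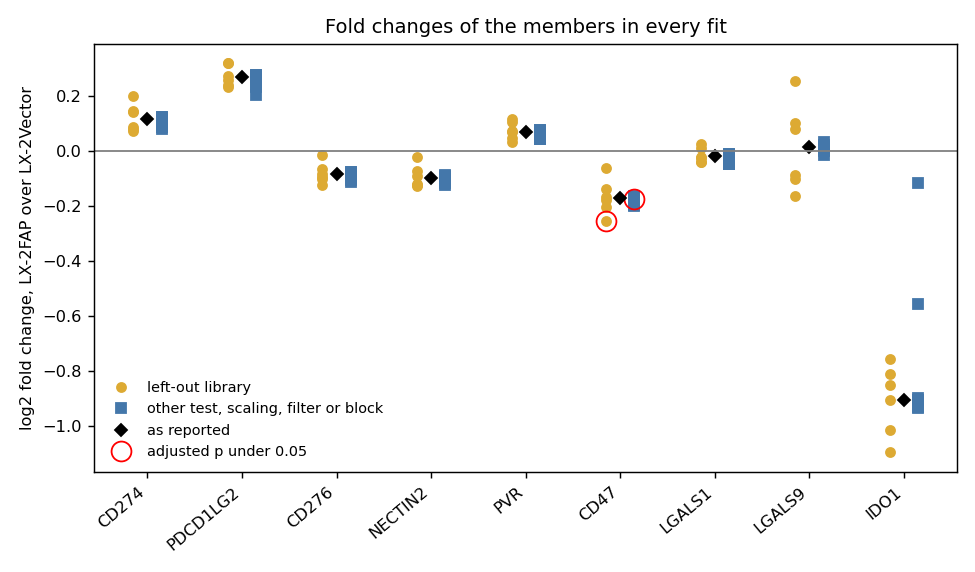
Log2FC values of the 9 tested members in the fit reported (black diamonds), in the 6 fits that each left out 1 library (yellow circles) and in the other 8 alternatives (blue squares), some of which overlie each other; a red ring marks an adjusted p under 0.05. The 2 rings both belong to CD47, at -0.26 and -0.17. IDO1 values from limma-trend lie nearer to 0 because of the pseudocount.

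Genes around these ligands were read from the same fit in 7 lists that hold 109 genes, of which 76 were tested. By edgeR 7 of the 76 were called, 2 higher and 5 lower in LX-2FAP (9.21%, against 5.29% of all tested genes), and 27 had an unadjusted p under 0.05. The list of other B7 and butyrophilin-type ligands was mixed, and held genes of other families such as HLA-E, CD58, CEACAM1, TNFRSF14 and CD24. In it 0 of 14 tested genes were called, with 8 at an unadjusted p under 0.05, where 22.2% of all tested genes passed in either direction. Each of the 8 was lower, TNFRSF14 and CD24 among them, so they are not a single family. The median log2FC of the list was -0.15, with 12 of 14 values below 0. Over all tested genes the median was -0.01, and 9685 of 18275 were lower. The most abundant members of the list were HLA-E, a ligand of NKG2A (log2FC -0.05), BTN2A1 (0.09), CD58 (0.07) and BTN2A2 (-0.14). ICOSLG, the ligand of the costimulator ICOS and the gene nearest to a call, was picked after its values were seen and had 1.30 ± 0.141 CPM in LX-2Vector and 0.698 ± 0.223 in LX-2FAP (SD, n = 3; log2FC -0.91, adjusted p = 0.0533 by edgeR). With library size alone or without a filter 4 genes of this list were called, all 4 lower in LX-2FAP: ICOSLG, the butyrophilins BTN3A1 and BTN3A3, and CD24, a ligand of the macrophage receptor Siglec-10. Dropping LX-2FAP replicate 1 also gave 4 calls, with VSIR (VISTA) in the place of ICOSLG. Over all tested genes, library size alone called 1052 of 18275 and the fit without a filter 1606 of 41175. The fit without LX-2FAP replicate 1 called 1949 of 18794, against 967 of 18275 in the fit reported. The log2FC values in the fit reported were -0.40 for CD24, -0.28 for BTN3A1, -0.25 for BTN3A3 and -0.29 for VSIR (adjusted p = 0.0586, 0.0625, 0.0589 and 0.158 by edgeR), and these genes too were picked after their values were seen. CD80 and CD86, the ligands of CTLA-4 and CD28, did not pass the filter.

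CADM4, an adhesion molecule of the nectin-like family, was called lower among 4 tested nectins and nectin-like genes (19.7 ± 0.548 to 16.2 ± 0.703 CPM, log2FC -0.29, adjusted p = 0.0306 by edgeR). It was not called in 5 of the 6 fits that left out a library, the exception being the fit without LX-2FAP replicate 1. NECTIN3, which binds NECTIN2 and PVR, had a log2FC of 0.16 and NECTIN1 one of -0.01. The galectin list had 5 tested genes, of which 1 was called. This was LGALS3BP, a secreted glycoprotein that binds galectin-3 and is not itself a galectin. LGALS3BP fell from 232.3 ± 6.39 to 198.0 ± 16.2 CPM (log2FC -0.23, adjusted p = 0.0212 by edgeR). It was called in 2 of the 6 fits that left out a library, which dropped LX-2Vector replicate 2 or LX-2FAP replicate 1. LGALS3 itself had a log2FC of -0.25 (adjusted p = 0.0624 by edgeR), and LGALS8 one of 0.05.

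The receptors were mostly at or under the filter, with 8 of 16 tested. PDCD1, TIGIT, CD96 and HAVCR2 (TIM-3) did not pass it. RGMB, a bone morphogenetic protein coreceptor that also binds PD-L2, was called higher, from 98.6 ± 1.05 to 109.02 ± 0.233 CPM (log2FC 0.15, adjusted p = 0.05 by edgeR, just under the threshold before rounding). The call was not made in any of the 6 fits that left out a library. SIRPA, the receptor of CD47, had a log2FC of -0.08 (adjusted p = 0.382 by edgeR) and THBS1, a secreted partner of CD47, one of -0.00.

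Among 17 tested genes that stabilise, modify or shed PD-L1 and CD47, CMTM6 was called higher. CMTM6 binds PD-L1 at the membrane and keeps it from degradation, and it rose from 213.4 ± 9.66 to 240.2 ± 10.04 CPM (log2FC 0.17, SE 0.05, adjusted p = 0.0407 by edgeR). It was not called with library size alone or in 5 of the 6 fits that left out a library, the exception being the fit without LX-2FAP replicate 1. The other abundant genes of this list, CDK4, STT3A, SPOP and ADAM10, had log2FC values of -0.01, 0.10, 0.03 and 0.05. QPCTL, which modifies CD47 so that SIRPα can bind it, had a log2FC of -0.12 (adjusted p = 0.454 by edgeR) and was picked after its values were seen.

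Beside IDO1, 12 of 16 genes of tryptophan uptake and the kynurenine pathway were tested. QPRT, which takes the pathway toward NAD, was called lower, from 5.54 ± 0.524 to 3.07 ± 0.890 CPM (log2FC -0.82, SE 0.17, adjusted p = 0.0155 by edgeR). The call was lost when LX-2FAP replicate 2 or 3 was dropped, and by limma-trend. The genes of highest level, SLC3A2, WARS1, KYAT3 and AFMID, had log2FC values of 0.23, 0.04, 0.15 and -0.17, with no call. IDO2 averaged 0.167 counts per library. TDO2, another enzyme that opens the ring of tryptophan, was picked after its values were seen and had a log2FC of 0.19 (adjusted p = 0.498 by edgeR).

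All 16 genes of the interferon and JAK-STAT list were tested, and STAT2 and TYK2, which carry the type I interferon signal, were called lower. STAT2 fell from 133.2 ± 0.893 to 115.1 ± 7.13 CPM (log2FC -0.21, adjusted p = 0.022 by edgeR) and TYK2 from 82.6 ± 0.988 to 72.1 ± 2.89 CPM (-0.19, adjusted p = 0.0279 by edgeR). Both calls were lost in 5 of the 6 fits that left out a library, all but the fit without LX-2FAP replicate 1. JAK1, IFNAR1 and IFNGR1 had log2FC values of -0.04, 0.11 and 0.04. IRF1, a factor that binds response elements like that in the CD274 stretch shown above, was picked after its values were seen and had a log2FC of -0.21 (adjusted p = 0.11 by edgeR).

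**Figure D5:**
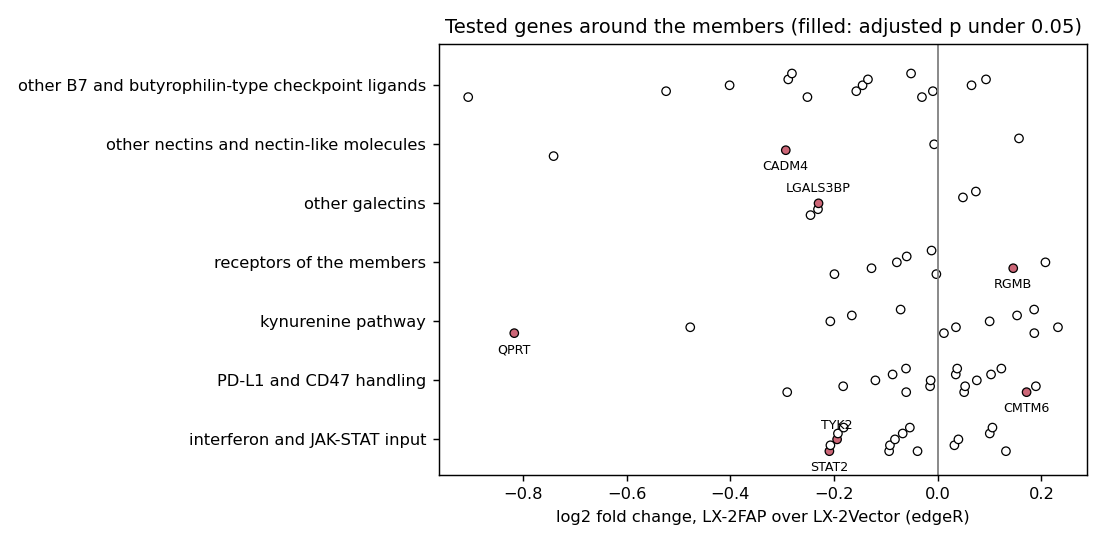
Log2FC of LX-2FAP over LX-2Vector for the 76 tested genes of the 7 lists around the members, 1 point per gene, with genes of an adjusted p under 0.05 filled and named. The 7 filled points are CADM4, LGALS3BP, QPRT, STAT2 and TYK2 to the left of 0 and RGMB and CMTM6 to the right; height within a list only separates points.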

How the data were processed

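RNA was sequenced in 6 LX-2 libraries. The authors aligned reads with HISAT2 2.0.5, counted them per gene with featureCounts 1.5.0-p3 and deposited whole-number counts with FPKM values computed by the authors from gene length and count. The submitters' processing notes list the build hg18, but 58337 of 60605 Ensembl identifiers matched GENCODE 29 (GRCh38), the source of coordinates here. The deposited FPKM values gave the GENCODE 29 length for 3 of the 10 members, so another annotation release was used. Whether poly(A) selection or ribosomal depletion set the RNA classes is not settled by the sources.

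Counts were tested with the edgeR 4.0.16 quasi-likelihood test (R 4.3.3, TMM, minimum count 10, minimum total 15), LX-2FAP against LX-2Vector with no covariate, with p-values 2-sided and adjusted (Benjamini-Hochberg) over 18275 genes. Called means an adjusted p under 0.05. DESeq2 1.42.0 and limma 3.58.1 (log2(FPKM + 1) and log2(FPKM + 0.1)) were alternatives, as were library size alone, DESeq2 size factors within edgeR, no filter, at least 10 counts in every library, the replicate number as a block and each library left out. The members and lists were chosen with earlier results of these data known. Named genes are FAP, every member, called genes of a list and up to 4 of its most abundant uncalled genes. A gene of the interferon list that the rule names is not reported here. No member was called, so no genes of like pattern were sought. The test was checked on simulated counts, with changes planted in genes that were not low in count. It recovered 56% of 1.2-fold, 96% of 1.5-fold and 100% of 2-fold changes, and 7.85% of its calls were false. A change near 1.2-fold could thus be missed. Fewer changes were planted than the 967 genes called in the data, so these shares may not hold for the data. Within a group no 2 libraries agreed within counting noise (chi-square over its degrees of freedom, 2.06 to 5.02). Words of 75 bases were compared over GENCODE 29 transcripts. Floors of 3 counts cover counting error only. Annotation columns of the table and protein sequences were not used here.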

Additional observations from a re-analysis of the deposited data

How the results depend on the processing

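The number of calls moved more with a library left out than with the choice of scaling. Leaving out a library also leaves its group with fewer libraries, so a lost call cannot be tied to that library alone. The choice of test and of filter moved the number as well, as given below. Leaving out 1 library each moved genes called over all tested genes from 967 to between 26 (LX-2FAP replicate 3 dropped) and 1949 (LX-2FAP replicate 1 dropped), members called and members called lower between 0 and 1, and members at the study's cutoff between 0 and 2. In the same fits FAP ran from 8.17 to 8.45 (log2). By list the genes called ran from 0 to 4 (other B7 and butyrophilin-type ligands), 0 to 1 (nectins, leukocyte markers and endothelial markers), 0 to 2 (galectins, kynurenine pathway, PD-L1 and CD47 handling) and 0 to 3 (interferon input, stellate markers), and were 0 throughout for receptors.

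Without a filter on low counts 1606 of 41175 genes were called, against 967 of 18275 in the fit reported. Of the members 1 was called, lower (CD47). By list these held 4 of the other B7 list, 3 of the galectin list (which includes LGALS3BP), 2 kynurenine genes, 1 leukocyte marker and 0 receptors. Limma-trend called 2 genes with each pseudocount and 0 in the lists of nectins, galectins, receptors, kynurenine genes, PD-L1 and CD47 handling, interferon input, stellate markers and endothelial markers. Members at the study's cutoff numbered 0 with log2(FPKM + 1) and 1 with log2(FPKM + 0.1), with DESeq2, with library size alone and with at least 10 counts in every library. DESeq2 called 1 of the other B7 list and 0 endothelial markers. Library size alone called 4 of the other B7 list, 2 of the galectin list, 0 receptors and 0 of the PD-L1 and CD47 handling list. At least 10 counts in every library gave 1 of the other B7 list. The causes were not tested. The median log2FC of all genes was -0.04 with library size alone and -0.01 in the fit reported.

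LGALS9 turned to -0.016 (log2) with library size alone and -0.0028 with log2(FPKM + 0.1), and ran from -0.16 to 0.25 over the fits that left out a library, below 0 in those that dropped LX-2Vector replicate 2 or either of LX-2FAP replicates 1 and 2. LGALS1 ran from -0.040 to 0.024 over those fits, above 0 when LX-2Vector replicate 1 or LX-2FAP replicate 2 was dropped. No other member changed sign. Of 138 values of members and FAP under alternatives, 129 kept direction and side of the threshold. An adjusted p under 0.01 gave 0 members called. By CPM in place of FPKM, 7 of the 10 members kept their place in the order.

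Deviations of same-numbered libraries from their group means correlated at -0.04, 0.04 and -0.01. No effect shared by replicate number was thus seen, but this cannot show whether the libraries were prepared as pairs, which the labels do not say. With the replicate number as a block 975 genes, 0 members and 0 receptors were called. VTCN1, LGALS9 and IDO1 are limited by depth.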
